A study of Mus musculus with 3 samples.

Results

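The vitamin D receptor (*Vdr*), its partner receptors *Rxra* and *Rxrb*, the disulfide isomerase *Pdia3*, and the vitamin D hydroxylases *Cyp2r1*, *Cyp27a1*, *Cyp27b1* and *Cyp24a1* were followed through 3 single-cell RNA libraries. The 8 genes were chosen by symbol from the gene name column of the deposited files, which list 31053 mouse genes, and each symbol named 1 gene. For the cultures, bone marrow of C57/BL6 mice was grown with granulocyte-macrophage colony-stimulating factor (GM-CSF). On day 7 the cells were left untreated (Co-Mac) or given 1 µM of 1,25 dihydroxy-cholecalciferol (VD3), the active form of vitamin D, for 24 hours (VD-Mac). The graft library (hSTSG) held cells from human split-thickness skin that had been placed under the skin of C57BL6/J mice and taken out on day 14, with 5 mice pooled. Only mouse genes are listed, and whether RNA of the human graft was counted under them was not tested. The labels give no age for the mice.

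Vitamin D is hydroxylated first by enzymes such as CYP2R1 and CYP27A1 and then by CYP27B1, which is known in the kidney and in activated macrophages and makes the active hormone. The hormone binds the vitamin D receptor, a nuclear receptor that acts on DNA as a heterodimer with a retinoid X receptor. CYP24A1 breaks the hormone down, and its gene is a long-known target of the receptor.

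After the cell filter, Co-Mac held 7257 cells with 132574308 UMIs (unique molecular identifiers, which count captured RNA molecules), VD-Mac 8825 cells with 116461484, and hSTSG 2144 cells with 22646544. Median depth was 15804 UMIs a cell in Co-Mac, 12089 in VD-Mac and 6637.5 in hSTSG. The cultures shared 19 cell barcodes with each other and each of them shared 7 with the graft library. Levels are given in CPM, in which a gene's UMIs are scaled to a fixed total of gene UMIs in the same cells, with exact 95% intervals. The intervals cover counting error only, since each condition had 1 library and no difference below has a replicate check. Counts come from the 3′ end of transcripts, so levels are compared for 1 gene at a time, and the most abundant gene of a list is only the one with most UMIs. A count of 0 is given the limit that 3 UMIs would set.

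Cells were sorted into types by marker genes, as set out with the processing. The libraries labelled macrophages were mixed: macrophage-gated cells were 36.3% of Co-Mac (2636 cells) and 30.0% of VD-Mac (2644 cells), and dendritic-gated cells 37.4% (2713) and 35.8% (3161). The cultures also held 513 and 618 granulocytes and 146 and 203 granulocyte precursors, while T cells (5 and 5) and fibroblasts (1 and 0) were too few for a level. In the graft 795 cells were gated as macrophages, 82 as dendritic cells, 476 as granulocytes, 282 as T cells and 139 as fibroblasts. No type was given to 1192, 2140 and 308 cells of Co-Mac, VD-Mac and hSTSG.

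The markers behind these gates were read as whole lists. All 8 macrophage markers were detected in each library and summed to 932 CPM in Co-Mac, 1157 in VD-Mac and 4900 in hSTSG, with *C1qb* the most abundant in the cultures. Among them *Cd68* went from 111 CPM in Co-Mac to 49.4 in VD-Mac, *Fcgr1* from 42.8 to 11.2 and *C1qa* from 129 to 251, so the macrophage markers themselves differed between the cultures. Whether the macrophage gate therefore held different cells in the cultures was not tested. The 8 dendritic markers summed to 906, 1190.5 and 269 CPM, led by *Ccr7* in each library, and the 9 granulocyte markers to 5202, 6085 and 9055 CPM, led by *S100a8*. The 3 precursor markers summed to 122, 57.9 and 4.46 CPM, led by *Prtn3*. The 6 T cell markers summed to 1.40, 0.601 and 227 CPM, led by *Cd2*, *Cd3d* and *Cd3g*. The 6 fibroblast markers summed to 2.93, 0.172 and 9844 CPM, led by *Col1a2*, *Col1a1* and *Col3a1*, with *Lum* at 0 in Co-Mac and *Lum*, *Dcn* and *Col3a1* at 0 in VD-Mac. Of the precursors, 109 of 146 in Co-Mac and 168 of 203 in VD-Mac also reached the minimum for another type, and their granulocyte markers summed to 43467 and 52337 CPM.

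A gene was called changed between the cultures when its levels differed 2-fold or more and reached at least 10 CPM in the higher culture. In whole libraries 7732 genes reached that floor, of which 167 (2.16%) were called higher and 358 (4.63%) lower in VD-Mac. Of the 8 genes, 5 reached the floor, and *Vdr* and *Cyp24a1* were called higher and *Rxra* lower, 3 of 5 compared with 6.79% of all genes tested in either direction. The median log2 ratio of all genes tested was -0.10.

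**Figure D1:**
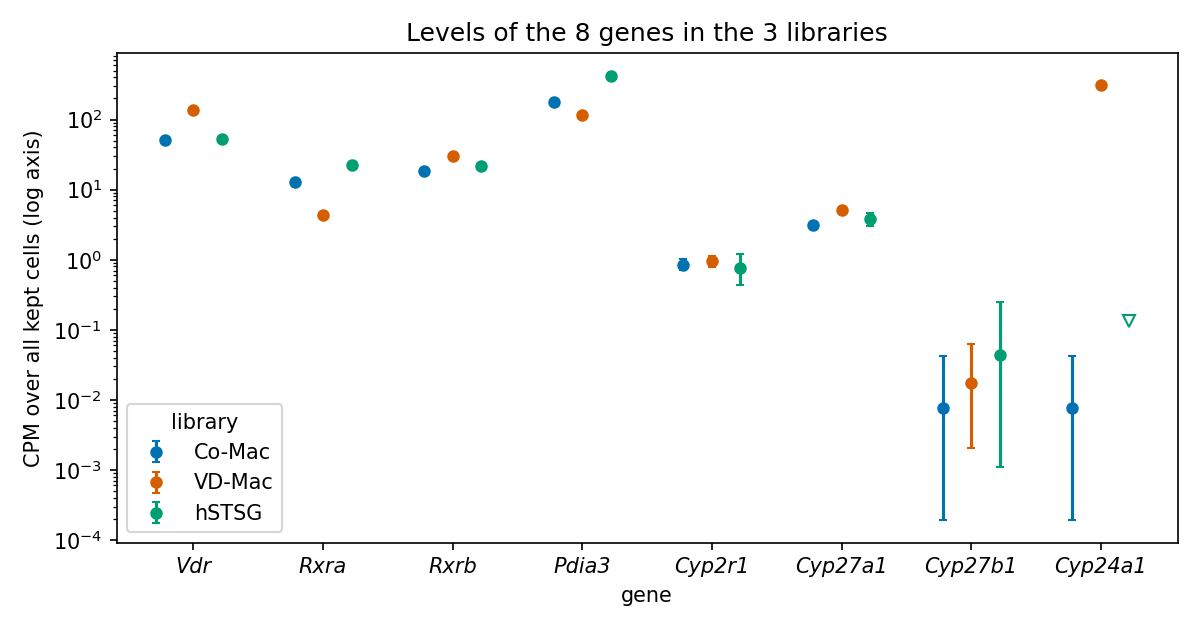
Level of each of the 8 genes in CPM (log axis) over all kept cells of the 3 libraries; bars are exact 95% counting intervals, and the open triangle marks the upper limit of 3 UMIs where 0 were found. *Cyp24a1* stands at 315 CPM in VD-Mac and at 1 and 0 UMIs in the other libraries.

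*Vdr* (ENSMUSG00000022479, chromosome 15 of GRCm38, 97854425 to 97910630, minus strand) encodes the nuclear receptor for the hormone. It had 6777 UMIs in Co-Mac, 51.1 CPM (49.9 to 52.4), 15691 UMIs in VD-Mac, 135 CPM (133 to 137), and 1179 UMIs in hSTSG, 52.1 CPM (49.1 to 55.1). VD-Mac stood above the other libraries, which lay within counting error of each other. The log2 ratio of VD-Mac to Co-Mac was 1.40 (1.36 to 1.44), a 2.64-fold difference. The call depended on the mitochondrial limit: in cells with under 5% mitochondrial UMIs the levels were 45.7 CPM in Co-Mac and 90.5 in VD-Mac, a log2 ratio of 0.99, just short of 2-fold. Those cells had median depths of 10889 and 3229 UMIs. Cells with 5% to under 10% had 53.6 and 146 CPM, at median depths of 18475.5 and 15105 UMIs.

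Within types, *Vdr* rose from 30.5 CPM (29.2 to 31.9) in macrophages of Co-Mac to 151 (147 to 154) in those of VD-Mac, and from 91.8 (89.0 to 94.7) to 135 (131 to 138) in dendritic cells. It rose from 16.2 CPM (12.4 to 20.7) to 42.3 (35.6 to 49.8) in granulocytes and from 12.8 (9.64 to 16.7) to 73.2 (65.5 to 81.6) in their precursors. All 4 types were thus higher in VD-Mac. The log2 ratios were 2.31 (2.23 to 2.38) in macrophages, 0.55 (0.50 to 0.61) in dendritic cells, 1.39 (0.95 to 1.84) in granulocytes and 2.52 (2.10 to 2.96) in precursors. The dendritic interval lay below the other 3 and below 2-fold. In granulocytes with under 5% mitochondrial UMIs the levels were 8.63 CPM (5.20 to 13.5) and 13.5 (8.56 to 20.3), with overlapping intervals. Barcodes with fewer than 300 genes had 2.35 CPM of *Vdr* (0.0596 to 13.1) in Co-Mac and 16.4 (7.08 to 32.3) in VD-Mac. These ranges include the low granulocyte levels, and whether such barcodes measure free RNA was not tested. With a stricter gate the precursor log2 ratio was 3.46. The 3 precursor markers themselves summed to 3491 CPM in precursors of Co-Mac and 1238 in those of VD-Mac. The gate's minimum was just met by 75 of 146 and 145 of 203 precursors, and whether the gate held like cells in both cultures was not tested.

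The order of the types therefore differed between the cultures. In Co-Mac dendritic cells had 3.01 times the level of macrophages, followed by granulocytes and precursors, whose intervals overlapped. In VD-Mac macrophages stood 1.12-fold above dendritic cells, followed by precursors and granulocytes, each apart beyond counting error. In VD-Mac cells with under 5% mitochondrial UMIs that lead was gone, with 104 CPM (95.8 to 114) in macrophages and 111 (105 to 117) in dendritic cells. Dendritic cells carried 59.1% of all *Vdr* UMIs in Co-Mac and 40.2% in VD-Mac, and macrophages 29.1% and 42.9%. Of all gene UMIs, dendritic cells held 32.9% in Co-Mac and 40.2% in VD-Mac, and macrophages 48.8% and 38.3%.

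In the graft *Vdr* was highest in dendritic cells, at 358 CPM (324 to 394), then 48.5 (44.5 to 52.9) in macrophages, 35.3 (27.3 to 44.8) in T cells and 7.76 (5.16 to 11.2) in fibroblasts. Granulocytes had 1 UMI, 0.716 CPM (0.0181 to 3.99). Dendritic cells had 7.37 times the macrophage level, and the 82 cells carried 34.5% of the library's *Vdr* UMIs while holding 5.02% of its gene UMIs. Neighbours in this order differed beyond counting error, although for macrophages over T cells the log2 ratio was only 0.46 (0.09 to 0.85). Among graft dendritic cells, the 66 with at least 2 *Ccr7* UMIs had 424 CPM (383 to 468) and the other 16 had 81.9 (48.6 to 129). Among those of Co-Mac, 2617 such cells had 93.9 CPM (91.0 to 96.9) and the other 96 had 33.8 (25.2 to 44.5). In VD-Mac the split gave 135 and 104 CPM, with no difference beyond counting error, at a log2 ratio of 0.37 (-0.04 to 0.81).

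Shares of cells with a *Vdr* UMI were taken after thinning each cell to 2000 UMIs. In the graft the share was 44.9% (33.6 to 56.6) of dendritic cells, 9.10% (7.12 to 11.4) of macrophages and 3.93% (1.98 to 6.92) of T cells, compared with 0.302% (0.00765 to 1.67) of granulocytes. The dendritic, macrophage and T cell shares thus stood above the granulocyte share, which read as background, while fibroblasts, at 0.735% (0.0186 to 4.03), did not. Before thinning, these 4 types in the same order had shares of 73.2, 26.3, 11.7 and 0.210%. Their median cells held 14312.5, 11014, 5694.5 and 2332 UMIs, and 4, 59, 2 and 145 cells were too shallow to be thinned. Graft fibroblasts had a share of 12.9% before thinning, above that of T cells, at a median depth of 25493 UMIs, with 3 cells too shallow. In the cultures the thinned share rose from 5.37% (4.53 to 6.31) to 22.2% (20.6 to 23.9) of macrophages and from 14.5% (13.2 to 15.9) to 20.2% (18.8 to 21.6) of dendritic cells. Granulocytes had 1.71% (0.630 to 3.68) and 5.17% (3.23 to 7.80), with overlapping intervals. No gated type of the cultures served as a background for these shares, and the part of free RNA in them was not tested. Unthinned, the macrophage shares were 39.7 and 66.8%, the dendritic shares 59.0 and 67.2% and the granulocyte shares 5.85 and 9.22%. Median depths, Co-Mac first, were 21113 and 14824 UMIs in macrophages, 14501 and 13435 in dendritic cells and 3191 and 2861 in granulocytes, with 47 and 183, 10 and 14, and 162 and 212 cells left out.

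Graft macrophages were also split by 3 subset genes, each read as a UMI in the thinned cell. The 278 *Trem2*-positive cells had 25.3 CPM (21.1 to 30.1) of *Vdr* and the 458 negative cells 68.7 (62.1 to 75.8), a log2 ratio of -1.44 (-1.74 to -1.15). The 146 *Plac8*-positive cells had 72.04 CPM (59.7 to 86.2) and the 590 negative cells 44.1 (39.9 to 48.7). *Vdr* was thus lower with *Trem2* and higher with *Plac8*. By *Cd163* no difference was detectable at this depth, with 44.8 CPM (35.7 to 55.5) in 121 positive and 49.2 (44.7 to 54.0) in 615 negative cells. In the cultures the *Trem2* split went the other way in VD-Mac, with 157 CPM in positive and 141 in negative macrophages, a log2 ratio of 0.16 (0.08 to 0.23), and gave -0.19 (-0.32 to -0.05) in Co-Mac.

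**Figure D2:**
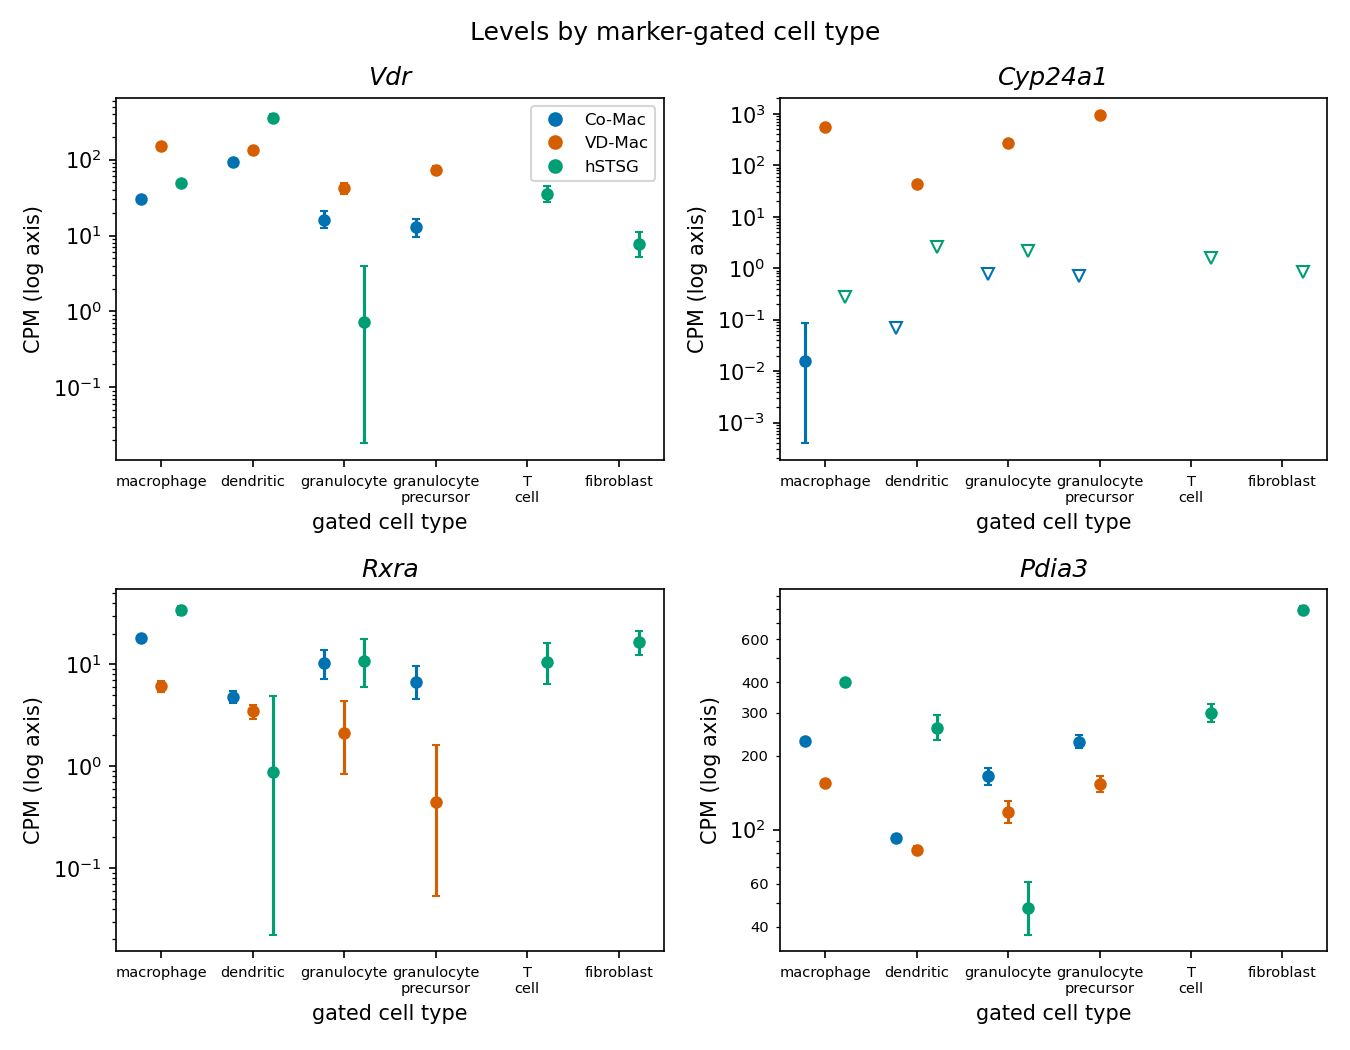
Level in CPM (log axis) of *Vdr*, *Cyp24a1*, *Rxra* and *Pdia3* in each gated cell type with 50 or more cells, by library; bars are exact 95% counting intervals and open triangles the upper limit of 3 UMIs where 0 were found. *Vdr* reaches 358 CPM in graft dendritic cells, and *Cyp24a1* lies above its limits in VD-Mac only, apart from 1 UMI in Co-Mac macrophages.

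*Rxra* (ENSMUSG00000015846, chromosome 2, 27676440 to 27762957, plus strand) encodes a heterodimer partner of the receptor. Its level was 12.9 CPM (12.3 to 13.5) in Co-Mac, 4.34 (3.97 to 4.73) in VD-Mac and 22.8 (20.9 to 24.9) in hSTSG. The graft was highest and VD-Mac lowest, with a log2 ratio between the cultures of -1.57 (-1.71 to -1.42), a 2.96-fold lower level in VD-Mac. Macrophages fell from 18.2 CPM (17.2 to 19.3) to 6.07 (5.37 to 6.84), a log2 ratio of -1.59 (-1.78 to -1.39). Granulocytes fell from 10.2 CPM (7.23 to 13.9) to 2.10 (0.844 to 4.32), a log2 ratio of -2.28 (-3.68 to -1.10). Dendritic cells, at 4.75 CPM (4.12 to 5.44) and 3.44 (2.93 to 4.02), moved least, with a log2 ratio of -0.46 (-0.77 to -0.16). Precursors had 29 UMIs in Co-Mac and 2 in VD-Mac, a log2 ratio of -3.92 (-7.03 to -1.94).

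In Co-Mac macrophages had the highest *Rxra* level of the types, and the intervals of precursors overlapped those of granulocytes and of dendritic cells. In VD-Mac macrophages again stood highest, and dendritic cells and granulocytes lay within counting error of each other. In the graft macrophages had 33.8 CPM (30.4 to 37.5), fibroblasts 16.4 (12.5 to 21.1), granulocytes 10.7 (6.01 to 17.7) and T cells 10.5 (6.43 to 16.3), where the last 3 did not differ beyond counting error. Dendritic cells had 1 UMI, 0.879 CPM (0.0223 to 4.90), so the type with the highest *Vdr* level in the graft had the lowest *Rxra* level. The macrophage to dendritic log2 ratio was 5.27 (2.78 to 10.57). Within Co-Mac dendritic cells *Rxra* had 3.94 CPM (3.37 to 4.59) with 2 or more *Ccr7* UMIs and 27.2 (19.5 to 36.9) without, the reverse of *Vdr*, while in VD-Mac the log2 ratio was -1.36 (-2.75 to 0.53). Among graft macrophages it had 51.2 CPM (41.5 to 62.5) in *Cd163*-positive and 30.2 (26.7 to 34.0) in negative cells, and 21.8 (15.3 to 30.2) in *Plac8*-positive and 36.1 (32.3 to 40.2) in negative cells.

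*Rxrb*, the other partner listed, had 18.5 CPM (17.8 to 19.3) in Co-Mac, 29.8 (28.8 to 30.8) in VD-Mac and 21.8 (19.9 to 23.8) in hSTSG. VD-Mac was highest, with a log2 ratio to Co-Mac of 0.69 (0.61 to 0.76), short of 2-fold and opposite in sign to *Rxra*. The log2 ratio was 0.89 (0.78 to 1.01) in macrophages (16.9 to 31.4 CPM), 0.50 (0.38 to 0.63) in dendritic cells (19.4 to 27.6 CPM) and 0.45 (0.08 to 0.83) in precursors (24.2 to 33.2 CPM). In granulocytes (25.8 and 27.3 CPM) no difference was detectable, at 0.08 (-0.35 to 0.50). Among graft types it ran from 16.6 CPM (12.7 to 21.4) in fibroblasts to 33.2 (25.5 to 42.4) in T cells. T cells stood above the other 4 types, and those 4 did not differ beyond counting error. However, the intervals of granulocytes, 20.8 CPM (13.9 to 29.8), and dendritic cells, 16.7 (10.1 to 26.1), overlapped that of T cells. *Plac8*-positive graft macrophages had 36.9 CPM and negative ones 17.3, a log2 ratio of 1.09 (0.64 to 1.53).

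**Figure D3:**
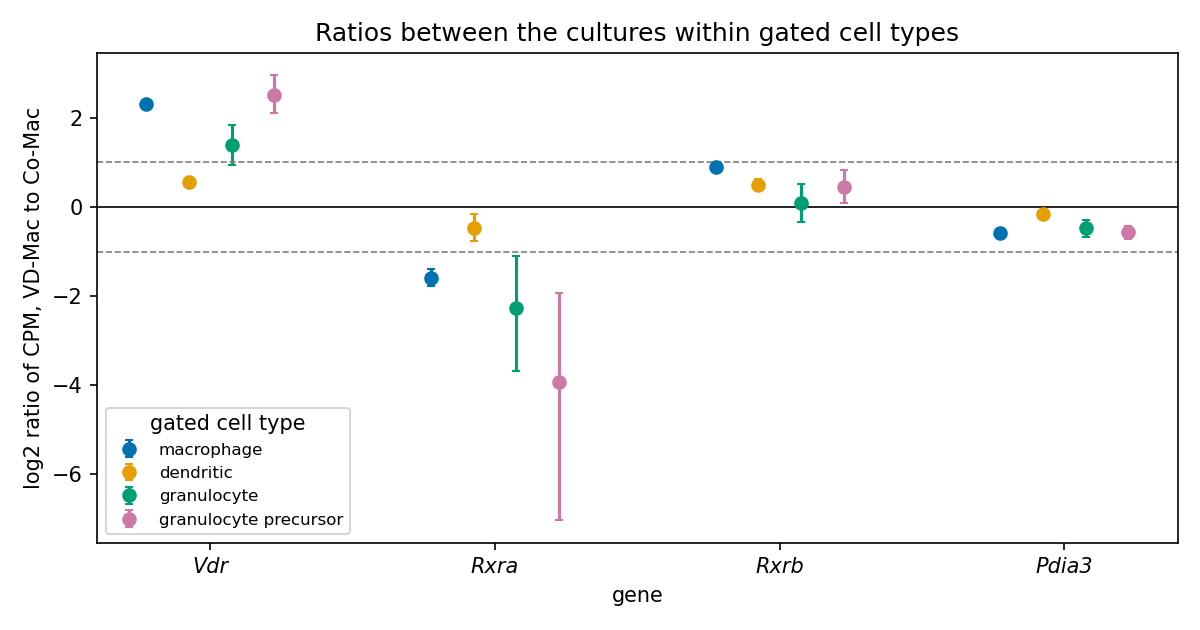
The log2 ratio of VD-Mac to Co-Mac for 4 genes within gated cell types, with exact 95% counting intervals as bars; dashed lines mark 2-fold. *Vdr* lies above 0 and *Rxra* below 0 in all 4 types, with dendritic cells nearest to 0 for both.

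*Pdia3* encodes a disulfide isomerase of the endoplasmic reticulum (ER) that folds glycoproteins and has also been described as a membrane-associated receptor for the hormone. It had 175 CPM (173 to 177) in Co-Mac, 118 (116 to 120) in VD-Mac and 420.1 (412 to 429) in hSTSG. The graft was highest and VD-Mac lowest, with a log2 ratio between the cultures of -0.57 (-0.60 to -0.54). Macrophages went from 231 to 155 CPM, dendritic cells from 92.3 to 82.7, granulocytes from 165 to 118 and precursors from 228 to 154. The log2 ratios were -0.57 (-0.62 to -0.53), -0.16 (-0.22 to -0.09), -0.48 (-0.67 to -0.30) and -0.57 (-0.71 to -0.43), none of them 2-fold. In both cultures macrophages and precursors did not differ beyond counting error, granulocytes were lower and dendritic cells lowest. In the graft fibroblasts had 792 CPM (763 to 822), macrophages 400.4 (389 to 413), T cells 300.1 (276 to 326), dendritic cells 261 (232 to 293) and granulocytes 48.0 (37.2 to 60.9), and only the T cell and dendritic levels were within counting error of each other.

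*Cyp2r1* and *Cyp27a1* encode enzymes of the first hydroxylation. *Cyp2r1* had 113 UMIs in Co-Mac, 0.852 CPM (0.702 to 1.02), 111 in VD-Mac, 0.953 (0.784 to 1.15), and 17 in hSTSG, 0.751 (0.437 to 1.20). The 3 libraries did not differ beyond counting error, and the log2 ratio of the cultures was 0.16 (-0.23 to 0.55), so a 2-fold difference lay outside its interval. *Cyp27a1* had 3.08 CPM (2.79 to 3.39) in Co-Mac, 5.20 (4.80 to 5.63) in VD-Mac and 3.80 (3.04 to 4.69) in hSTSG. VD-Mac was highest, with a log2 ratio to Co-Mac of 0.76 (0.57 to 0.94), but *Cyp27a1* did not reach the floor of 10 CPM. In macrophages it went from 2.04 CPM (1.71 to 2.42) to 5.78 (5.10 to 6.53), a 2.83-fold difference (2.29 to 3.52). In macrophages with under 5% mitochondrial UMIs the levels were 1.55 CPM (0.959 to 2.37) and 2.16 (1.08 to 3.86), with overlapping intervals. Cells without a type went from 2.83 to 4.52 CPM, a log2 ratio of 0.68 (0.12 to 1.25), and precursors had 1 UMI in Co-Mac and 7 in VD-Mac, a log2 ratio of 2.74 (-0.22 to 8.24). Dendritic cells had 5.20 and 5.64 CPM, a log2 ratio of 0.12 (-0.14 to 0.38).

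In granulocytes *Cyp27a1* had 2 UMIs in each culture, with upper limits of 1.88 CPM in Co-Mac and 2.17 in VD-Mac. It had 0 in the graft, where 0 allows up to 2.15 CPM. Graft macrophages had 5.93 CPM (4.57 to 7.57) and dendritic cells 7.03 (3.04 to 13.9), within counting error of each other, although as means over cells they had 6.09 and 23.3 CPM. T cells had 0 UMIs (up to 1.58 CPM) and fibroblasts 1. Among graft macrophages the *Plac8*-positive cells had 13.3 CPM (8.35 to 20.2) and the negative cells 4.63 (3.34 to 6.26), and the *Trem2*-positive cells 3.59 (2.13 to 5.68) and the negative cells 8.06 (5.90 to 10.8). In the graft *Cyp27a1* and *Vdr* were thus both lower with *Trem2* and higher with *Plac8*. By *Cd163*, where *Vdr* showed no difference, *Cyp27a1* had 9.60 CPM in positive and 5.20 in negative cells, a log2 ratio of 0.88 (0.01 to 1.70). In culture macrophages the *Trem2* split of *Cyp27a1* gave 0.49 (-0.03 to 1.00) in Co-Mac and 0.36 (-0.04 to 0.77) in VD-Mac.

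*Cyp27b1*, the enzyme that makes the active hormone, had 1 UMI in Co-Mac, 2 in VD-Mac and 1 in hSTSG, all in macrophages. A count of 3 UMIs, the floor used here, corresponds to 0.0226, 0.0258 and 0.132 CPM in these libraries. Any comparison would have both sides under that floor, so no fold is given.

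*Cyp24a1* (ENSMUSG00000038567, chromosome 2, 170482708 to 170497145, minus strand) encodes the enzyme that breaks the hormone down. It had 1 UMI in Co-Mac, 0.00754 CPM (0.000191 to 0.0420), 36662 UMIs in VD-Mac, 315 CPM (312 to 318), and 0 in hSTSG, which allows up to 0.132 CPM. It was found in quantity in VD-Mac only, where cells with under 5% mitochondrial UMIs had 176.5 CPM (171 to 182). The log2 ratio of VD-Mac to Co-Mac was 15.35 with a counting interval from 12.87 to 20.65, wide because of the single UMI. Ranked by the lower limit of that interval, 7490-fold, *Cyp24a1* was the first of the 7732 genes tested, ahead of *Gdf15* at 33.7-fold. By the difference in CPM it ranked 86 and *Vdr* 190.

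In VD-Mac *Cyp24a1* had 944 CPM (916 to 973) in granulocyte precursors, 549 (542 to 556) in macrophages, 270.1 (253 to 288) in granulocytes and 43.8 (42.0 to 45.8) in dendritic cells. All neighbours in this order differed beyond counting error, and macrophages had 12.5 times the dendritic level. Of the 203 precursors, 168 also reached the minimum for another type. With cells of 2 types left out, under 50 precursors remained and macrophages stood highest, at 563 CPM. The single UMI of Co-Mac lay in a macrophage. The other 3 types had 0 UMIs there. Against 3 UMIs over each of those Co-Mac groups the VD-Mac levels were 1353-fold higher in precursors, 345-fold in granulocytes and 637-fold in dendritic cells. The lower limits of the counting intervals, in the same order, were 1099-fold, 280-fold and 518-fold. Macrophages carried 66.9% of the *Cyp24a1* UMIs and 38.3% of the gene UMIs of VD-Mac, and dendritic cells 5.59% and 40.2%.

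Within types the calls were read against their own backgrounds. In macrophages 3 of the 5 listed genes tested were called, *Vdr* and *Cyp24a1* higher and *Rxra* lower, against 3.33% higher and 4.93% lower (8.25% in either direction) of all 7817 genes tested. The same 3 of 5 were called in granulocytes, against 2.58% higher and 4.72% lower (7.29%) of 7609 genes. In granulocytes with under 5% mitochondrial UMIs *Vdr* was short of 2-fold, at 8.63 and 13.5 CPM. When the cells were also gated anew under that limit, the levels were 6.26 CPM in Co-Mac and 13.5 in VD-Mac, which met the 2-fold rule. Under that limit the granulocyte call of *Vdr* thus depended on the gating. In dendritic cells only *Cyp24a1* was called, higher, 1 of 4 against 2.02% higher and 3.15% lower (5.17%) of 6790 genes. In precursors *Vdr* and *Cyp24a1* were called higher, 2 of 4 against 5.19% higher and 6.79% lower (12.0%) of 7614 genes, since *Rxra* was below the floor in both.

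Thinned to 2000 UMIs, 73.8% (67.1 to 79.7) of precursors, 48.3% (46.3 to 50.3) of macrophages and 18.0% (14.4 to 22.1) of granulocytes in VD-Mac had a *Cyp24a1* UMI, compared with 5.27% (4.52 to 6.11) of dendritic cells. Before thinning, the same types had 90.1, 71.3, 22.5 and 17.9%, their median cells held 20448, 14824, 2861 and 13435 UMIs, and 1, 183, 212 and 14 cells were too shallow to be thinned. VD-Mac barcodes with fewer than 300 genes had 28.7 CPM (15.7 to 48.1), a range that includes the dendritic level. The dendritic level was 7.98% of the macrophage level. For *Lyz2*, a macrophage gene that was not a gate marker, it was 2.90% in VD-Mac, 4.11% in Co-Mac and 5.83% in hSTSG. Whether dendritic cells made *Lyz2* themselves was not tested, so it gives no measure of free RNA. For *C1qa*, *C1qb* and *C1qc* the dendritic level in VD-Mac was 0.847%, 1.85% and 1.41% of the macrophage level. These are markers of the macrophage gate, so the gating itself favours low values and they give no measure of free RNA. The 10% of dendritic cells with the most *Cyp24a1* held 87.9% of the UMIs of their type, compared with 86.2% in granulocytes, 43.4% in macrophages and 28.2% in precursors, and the median cell had 0, 0, 4 and 18 UMIs. What part of the dendritic UMIs came from free RNA was not tested.

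Among VD-Mac macrophages *Cyp24a1* had 637 CPM (628 to 646) in the 1288 cells with a UMI of the proliferation genes *Mki67* or *Top2a* and 383 (374 to 393) in the other 1356. It had 610.0 CPM (601 to 619) in 1507 *Trem2*-positive and 438 (427 to 448) in 954 negative cells. Among granulocytes, the 172 with 2 or more UMIs of the granule genes *Ltf*, *Ngp* and *Camp* had 355 CPM (329 to 382) and the other 446 had 155 (135 to 177). Each of these splits also differed in depth, with medians of 19989 against 10363 UMIs for the proliferation genes, 16766 against 13134.5 for *Trem2* and 9805.5 against 2211.5 for the granule genes, and the part of depth was not tested. *Cyp24a1* was lower in macrophages with under 5% mitochondrial UMIs, at 346 CPM (330 to 363), than in those with 5% to under 10%, at 575 (568 to 583), with median depths of 3270 and 18039 UMIs. The same held in granulocytes, at 144 CPM (127 to 164) and 401 (371 to 433), and in dendritic cells, at 28.5 (25.4 to 31.9) and 48.4 (46.2 to 50.8).

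In a separate thinning to 2000 UMIs, a *Cyp24a1* UMI was about as common in VD-Mac macrophages with a *Vdr* UMI, 49.5% of 501 cells (45.0 to 54.0), as in those without, 46.9% of 1960 (44.7 to 49.1). In dendritic cells the shares were 6.08% of 641 (4.36 to 8.22) and 4.43% of 2506 (3.66 to 5.31). In granulocytes they were 36.4% of 22 (17.2 to 59.3) and 16.7% of 384 (13.1 to 20.8), and in precursors 71.4% of 28 (51.3 to 86.8) and 73.0% of 174 (65.7 to 79.4). The intervals overlapped in each type. Before thinning 66.8% of VD-Mac macrophages had a *Vdr* UMI, compared with 22.2% after the thinning used above. Many cells counted as without a *Vdr* UMI had thus held one. These shares therefore cannot tell whether *Cyp24a1* followed *Vdr* from cell to cell. Among the 4 types the order of *Cyp24a1* was not that of *Vdr*: dendritic cells, next to highest for *Vdr* in VD-Mac, were lowest for *Cyp24a1*.

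Other genes of the pathway were read from lists, with medians taken on log2 ratios after 1 CPM was added to each level and only over genes that reached 10 CPM in a culture. Of 9 cofactors of the receptor, 9 were tested and 0 called, against 6.79% of all genes tested in either direction, with a median of 0.02. The most abundant in the cultures were the corepressor *Ncor1*, at 121 CPM in Co-Mac and 148 in VD-Mac, and the coactivator *Snw1*, at 67.8 and 71.2. Of 11 other members and partners of the RXR family, 4 were tested and 0 called (6.79% of all genes tested), with a median of -0.12, led by the retinoic acid receptor *Rara* (39.7 and 31.9 CPM) and the liver X receptor *Nr1h2* (34.8 and 36.4). The third RXR gene, *Rxrg*, had 0 UMIs in all 3 libraries. The other liver X receptor, *Nr1h3*, was singled out after its values were seen: it had 3.65 CPM (3.33 to 3.99) in Co-Mac, 0.532 (0.408 to 0.682) in VD-Mac and 21.6 (19.8 to 23.6) in hSTSG, a log2 ratio between the cultures of -2.78 (-3.18 to -2.39) under the floor for a call.

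Of 8 genes for carriage, uptake and electron supply, 3 were tested and 1 called lower, against 4.63% of all genes tested, with a median of -0.46. That gene was *Dab2*, an adaptor for endocytic receptors, at 102 CPM in Co-Mac, 47.1 in VD-Mac and 354 in hSTSG. *Fdx1*, which passes electrons to mitochondrial P450 enzymes, had 37.7, 53.1 and 24.4 CPM. Of 15 textbook targets of the receptor apart from *Cyp24a1*, 5 were tested and 0 called, where 6.79% of all genes tested were called, so this count says little, with a median of -0.11. The most abundant were *Spp1*, at 520.5 and 586 CPM in the cultures, and *Cdkn1a*, at 583 and 392. The calcium transport genes of this list were picked out after their values were seen. *Trpv5*, *Trpv6*, *Calb1* and *S100g* had at most 3 UMIs in any library. *Atp2b1* had 149 CPM in Co-Mac, 119 in VD-Mac and 437 in hSTSG.

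Of 7 genes known as inducers of *Cyp27b1* in macrophages, or their receptors and mediators, 6 were tested, 1 was called higher and 1 lower, against 2.16% and 4.63% of all genes tested, with a median of -0.28. The interferon receptor gene *Ifngr1* rose from 51.6 to 106 CPM and *Tlr2* fell from 107 to 46.7. The transcription factor *Cebpb* was the most abundant, at 548 and 399.8 CPM. *Ifng* itself had 0 UMIs in the cultures and 50 in the graft. Of 8 ER chaperones that work with or beside *Pdia3*, 8 were tested and 0 called, near the 6.79% of all genes tested, with a median of -0.50 where that of all genes tested was -0.10. *Calr* (568 and 296 CPM) and *Hsp90b1* (431 and 300.2) were the most abundant, and *Tapbp*, at 151 and 166 CPM, was the one gene of the 8 that was higher in VD-Mac.

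Across the 13 groups of library and gated type with 50 or more cells, the genes whose log2(CPM + 1) followed that of *Vdr* most closely among 10993 genes were *Kcnk6* (Pearson r 0.95), *Irf8* (0.94), *Znfx1* (0.92), *Atmin* (0.92) and *Rgs10* (0.91). *Irf8* ran from 4.30 CPM in graft granulocytes to 506 in VD-Mac dendritic cells. For *Cyp24a1* they were *Gm38832* (0.94), *Dapk2* (0.88), *Gm32051* (0.86), *Serpina11* (0.85) and *Ppox* (0.85). *Dapk2* had 33.2 CPM in macrophages, 61.0 in precursors and 2.56 in dendritic cells of VD-Mac, and 1.24, 1.40 and 5.02 in those of Co-Mac. The groups share libraries and are not independent, so r is a description. With 10 CPM added in place of 1, 3 of the 5 genes were again among the leading 5 for each.

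*Rxra*, *Pdia3* and *Cyp24a1* lie on chromosome 2, and the other 5 genes each on a chromosome of their own. Promoter windows from RefSeq (GRCm38.p6), 250 bases before to 50 after the start, were available for 7 of the 8 genes, as the table of promoters used held none for *Cyp24a1*. They were searched on both strands for 3 hexamers that nuclear receptors of this family bind and for the GC box. Of 32851 promoters, 16.3% held the hexamer AGGTCA at least once. The hexamer AGTTCA was in 14.0% of these promoters, the third, GGTTCA, in 10.4% of them, and the GC box, written GGGCGG, in 35.7%. Direct repeats 3 bases apart (DR3) of any pair of these hexamers, with GGGTCA also allowed, were in 13 promoters (0.0396%), and hexamers inside a repeat are also counted singly. No window of the 7 genes held a DR3, which says only that these letters are not in these windows. The window of *Vdr* (chr15:97908247-97908546, minus strand) held 1 match to AGTTCA and 3 GC boxes. Of the windows of *Rxra*, the first (chr2:27676951-27677250, plus strand) held 4 GC boxes and the second (chr2:27709042-27709341, plus strand) held 2 matches to AGGTCA. They are shown because these genes were called in opposite directions, with matches on either strand in capitals, and a match is not shown to be a site.
Vdr: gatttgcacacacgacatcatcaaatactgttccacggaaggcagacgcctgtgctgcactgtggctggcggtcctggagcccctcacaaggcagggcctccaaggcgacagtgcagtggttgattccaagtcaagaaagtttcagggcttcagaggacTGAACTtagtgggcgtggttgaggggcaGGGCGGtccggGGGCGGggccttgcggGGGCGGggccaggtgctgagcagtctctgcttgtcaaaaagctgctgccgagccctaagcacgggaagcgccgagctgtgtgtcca
Rxra window 1: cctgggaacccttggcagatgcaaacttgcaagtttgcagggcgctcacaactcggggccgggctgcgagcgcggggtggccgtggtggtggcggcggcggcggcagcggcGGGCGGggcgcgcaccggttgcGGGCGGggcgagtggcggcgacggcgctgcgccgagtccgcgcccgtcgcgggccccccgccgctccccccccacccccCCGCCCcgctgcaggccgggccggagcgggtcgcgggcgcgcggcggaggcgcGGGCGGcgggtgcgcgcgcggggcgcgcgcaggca
Rxra window 2: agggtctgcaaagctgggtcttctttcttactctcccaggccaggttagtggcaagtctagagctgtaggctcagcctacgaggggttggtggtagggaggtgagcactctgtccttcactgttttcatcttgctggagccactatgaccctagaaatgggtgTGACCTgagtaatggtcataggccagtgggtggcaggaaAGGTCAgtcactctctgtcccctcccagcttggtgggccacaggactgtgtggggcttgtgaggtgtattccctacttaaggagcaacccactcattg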

How the data were processed

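The 3 libraries were made with 10x Single Cell 3′ v3 chemistry. The authors deposited raw UMI counts per gene and cell barcode from Cell Ranger 3.1.0, not normalized and not yet put through the cell filter of the study's methods. The labels name the build mm9, but the files hold no coordinates, and all 31053 gene IDs are mouse Ensembl IDs, of which 30934 are in GENCODE M21 (GRCm38), the source of the positions given. Cells with at least 300 genes, fewer than 100000 gene UMIs and under 10% mitochondrial UMIs were kept, and levels were computed as CPM over summed cells. A marker counted as positive with 1 or more UMIs and a share above its library's mean. A cell took the type with the largest share of positive markers if at least 2 were positive and no other type tied. Types with under 50 cells were given no level. The result of 1 marker is not reported here. Also gated, with the cells of Co-Mac, VD-Mac and hSTSG, were B lineage (21, 15, 19), endothelial (2, 2, 35), keratinocyte (0, 0, 2) and mast cell or basophil (28, 37, 4). No doublet caller was run, and cells with markers of 2 types were left out as an alternative.

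Intervals are exact at 95%: Poisson for levels, conditional binomial for ratios and Clopper-Pearson for shares. With 1 library per condition no test was made. The 8 genes and the gene lists were chosen with earlier results of these data known. The gate was settled after marker counts, and levels of the 8 genes by cluster, had been seen. The splits by *Ccr7*, by granule genes, by proliferation genes and by mitochondrial share were likewise chosen after values had been seen. So were the comparisons made with free RNA in mind and the promoter search. All 8 genes are named, and of each pathway list the genes called (up to 4) and the 2 most abundant in the cultures, and the 5 genes closest in pattern to *Vdr* and to *Cyp24a1*, among genes with at least 10 CPM in a group. Outside this rule, *Rxrg*, *Nr1h3*, *Ifng*, *Tapbp*, *Atp2b1*, *Trpv5*, *Trpv6*, *Calb1* and *S100g* are named as well. Python 3.11.15 was used with numpy 2.4.6, scipy 1.17.1, pandas 2.3.3 and matplotlib 3.10.9. The calls were checked on simulated counts with known differences. Hashtag counts, clustering and the bulk and imaging data were not analysed here.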

Additional observations from a re-analysis of the deposited data

Results flagged for a closer look

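The 969 VD-Mac barcodes that failed the cell filter, of which only the 352 with fewer than 300 genes are used above, had 159 CPM of *Vdr* (151 to 168) and 384 CPM of *Cyp24a1* (371 to 398), compared with 74.1 CPM and 0 UMIs in the 609 such barcodes of Co-Mac.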

How the results depend on the processing

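Log2 ratios of VD-Mac to Co-Mac over whole libraries were recomputed under 48 alternatives for 7 genes. None of the called ratios changed sign, and the 3 changes of sign were all of *Cyp2r1*, which was not called: -0.50 with under 5% mitochondrial UMIs, -0.03 as a mean over cells and -0.33 with equal weight of the gated types. Under 5% mitochondrial UMIs *Vdr* gave 0.99, *Rxra* -1.87, *Rxrb* 0.58, *Pdia3* -0.65 and *Cyp27a1* 0.39, and *Cyp24a1* gave no value, with 0 UMIs in Co-Mac. Median-of-ratios scaling gave 1.49 for *Vdr*, 0.78 for *Rxrb* and -0.48 for *Pdia3*. It also changed the calls from 167 higher and 358 lower to 208 and 290, so that the higher share of calls went from 31.8 to 41.8%. Means over cells gave 1.23 for *Vdr*, -0.52 for *Pdia3* and 0.32 for *Cyp27a1*. Equal weight of types gave -1.73 for *Rxra*, 0.47 for *Rxrb* and -0.49 for *Pdia3*. Leaving out cells with markers of 2 types gave 1.35 for *Vdr*. In all, 31 of the 48 stayed within the counting interval. Calls numbered 390 higher and 712 lower with a floor of 1 CPM, 75 and 140 with 50 CPM, where *Rxra* was below the floor, and 465 and 984 at 1.5-fold, where *Rxrb* was also called. Of 70 alternatives within types, 11 left the counting interval and 3 changed sign, *Cyp2r1* in macrophages and dendritic cells and *Rxrb* in granulocytes. Thinning to 1000 or 5000 UMIs moved 137 of 172 shares, as shares depend on depth. Of 63 alternatives for graft levels by type, 8 left the interval. Alternatives for culture levels by type were added after the data were seen, and 58 of 166 values left the interval. Without cells of 2 types, and in VD-Mac with under 5% mitochondrial UMIs, under 50 precursors remained. The cause of these changes was not tested. Depth limits *Cyp27b1*, *Cyp2r1* in single types and the 82 graft dendritic cells.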
